A study of Mus musculus with 15 samples.

Results

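The genes described here encode the MHC class I antigen presentation pathway of the mouse: the heavy chains *H2-K1*, *H2-D1* and *H2-T23*, the light chain *B2m*, the peptide transporter genes *Tap1* and *Tap2*, the loading factor *Tapbp* and the immunoproteasome subunits *Psmb8*, *Psmb9* and *Psmb10*. They were taken from a list of 10 gene symbols matched to the symbols of the expression tables. All 10 were present among the 11677 genes measured in whole cultures and among the 11299 genes measured in microdissected regions. Expression was measured by 3′ end RNA sequencing in 15 samples of 21EM15 cells, an immortalized mouse lens epithelial line. All samples were labelled wild type (WT) and received no added treatment. The 2D group held 4 samples, each from cells grown as a monolayer on plastic, and the 3D group held 4 samples, each a pool of spheroids grown in non-adhesive wells. In the other experiment, frozen sections of pooled spheroids were cut by laser capture microdissection, which gave 4 internal and 3 external samples. Another external sample was not analysed here. The study set it aside because its expression differed from that of the other 3, so the spread among external samples may be understated. All samples derive from 1 cell line, and the strain of mouse that the line comes from is not given in the sources used here. Class I heavy chain genes differ between strains, so how well their reads match the reference genome was not tested.

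MHC class I molecules carry short peptides from proteins made inside the cell to its surface, where CD8+ T cells and natural killer cells can read them. Peptides are cut by the proteasome, moved into the endoplasmic reticulum by the TAP transporter and loaded, with the help of tapasin, onto a heavy chain paired with β2-microglobulin. Interferons are known to raise most genes of the pathway through transcription factors such as the IRF family and through the coactivator NLRC5. The lens has no blood vessels in the adult and belongs to the immune-privileged eye.

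In GRCm38, 8 of the 10 genes lie on chromosome 17, in or beside the MHC. A tight cluster is formed by *Psmb9* (chr17:34181987-34187764, minus strand), *Tap1* (chr17:34187553-34197225, plus strand), *Psmb8* (chr17:34197721-34201454, plus strand) and *Tap2* (chr17:34203527-34216321, plus strand). The annotated 5′ ends of *Psmb9* and *Tap1* overlap, and 495 bp separate *Tap1* from *Psmb8*. *Tapbp* lies at chr17:33915899-33929292 on the plus strand, *H2-K1* at chr17:33996017-34000347 on the minus strand, *H2-D1* at chr17:35262730-35267499 on the plus strand and *H2-T23* at chr17:36029773-36032855 on the minus strand. *B2m* (chr2:122147686-122153083, plus strand) and *Psmb10* (chr8:105935735-105938444, minus strand) lie elsewhere. All 10 are annotated as protein-coding.

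Promoter sequences from RefSeq on GRCm38.p6 were found for 9 of the 10 genes. The 250 bases before the start were searched on both strands for the core of the interferon-stimulated response element (GAAA, any 2 bases and GAAA again) and for the gamma-activated site, TTCNNNGAA. The response element core was found in 2 of the 9 genes, against 3.46% of 27025 genes with such a sequence, and the gamma-activated site in 1 of the 9, against 8.13% of those genes. Neither was found in the other 6. The first 3 sequences below are the matching ones, with the match in capitals, and the *Tap1* sequence is shown because it shares 225 bases with that of *Psmb9*, which is transcribed the opposite way. They cover chr2:122147437-122147686 on the plus strand, chr17:36032702-36032951 on the minus strand, chr17:34197945-34198194 on the plus strand and chr17:34187306-34187555 on the plus strand, and each is written 5′ to 3′ on the gene's strand.
B2m: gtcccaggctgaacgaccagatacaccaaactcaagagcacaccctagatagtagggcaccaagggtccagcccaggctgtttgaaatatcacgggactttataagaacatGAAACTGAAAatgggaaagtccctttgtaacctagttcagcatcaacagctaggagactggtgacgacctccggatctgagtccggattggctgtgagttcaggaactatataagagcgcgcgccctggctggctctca
H2-T23: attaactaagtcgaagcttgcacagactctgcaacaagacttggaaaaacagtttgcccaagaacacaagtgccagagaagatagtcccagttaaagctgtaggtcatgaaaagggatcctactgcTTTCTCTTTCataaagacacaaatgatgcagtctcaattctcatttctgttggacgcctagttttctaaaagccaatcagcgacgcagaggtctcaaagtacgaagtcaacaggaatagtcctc
Psmb8: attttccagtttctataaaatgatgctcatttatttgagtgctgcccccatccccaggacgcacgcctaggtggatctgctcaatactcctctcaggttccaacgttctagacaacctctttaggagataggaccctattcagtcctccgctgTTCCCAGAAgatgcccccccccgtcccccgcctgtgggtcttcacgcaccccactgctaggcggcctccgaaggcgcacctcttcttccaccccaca
Tap1: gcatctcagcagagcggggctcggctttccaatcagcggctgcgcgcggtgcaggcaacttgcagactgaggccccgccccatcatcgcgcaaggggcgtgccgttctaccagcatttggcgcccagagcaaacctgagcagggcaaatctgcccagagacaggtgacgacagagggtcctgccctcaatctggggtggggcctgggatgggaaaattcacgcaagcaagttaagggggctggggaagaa
The match in *B2m* begins 139 bases before the start, that in *H2-T23* 124 bases before it and that in *Psmb8* 97 bases before it. A match is a description of the letters only.

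Expression values are CPM (read counts scaled to a common library size), computed from the whole reads behind the deposited log2 CPM. The totals ranged from 7305053 to 9362587 reads in 2D, from 7727642 to 8364276 in 3D, from 4256391 to 11702504 in internal and from 4044230 to 6086089 in external samples. At these depths, 3 reads, taken as the smallest signal, corresponded to between 0.312 and 0.409 CPM in the cultures and between 0.248 and 0.802 CPM in the regions. Because cultures and regions were scaled apart from each other, no test crossed the tables. Of 8 lens markers, 5 were measured in the cultures (*Pax6*, *Six3*, *Cryab*, *Maf* and *Prox1*), and their summed level was 1477 to 1815 CPM in 3D and 828 to 1196 CPM in 2D. *Foxe3*, *Cdh1* and *Sox2* were not among the genes measured. Measured genes are those left after the authors' filter for low CPM, so an absent gene may lie below that filter. In *Prox1*, 2D replicate 3 had 1 read, where 2D samples reached 355 reads. In this library 190 genes had no read, while this number was 21 to 68 elsewhere in 2D and 22 to 34 in 3D, and the part of this in the results was not tested.

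Within the pathway the levels spanned a wide range, counted per 3′ end and therefore without regard to transcript length. *B2m* ranked 91st of the 11677 genes of the cultures by mean level, *H2-K1* 581st, *Tapbp* 1087th and *H2-D1* 1265th. The immunoproteasome subunits and transporter genes were far lower, down to *Tap2* at rank 9865 and *Psmb9* at rank 10007. In the regions *B2m* ranked 233rd of 11299 genes, *Tapbp* 769th and *H2-K1* 805th, the latter pair in the reverse order, and *Psmb9* was again the lowest of the 10, at rank 10398. The plot of the members by sample shows every value.

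**Figure D1:**
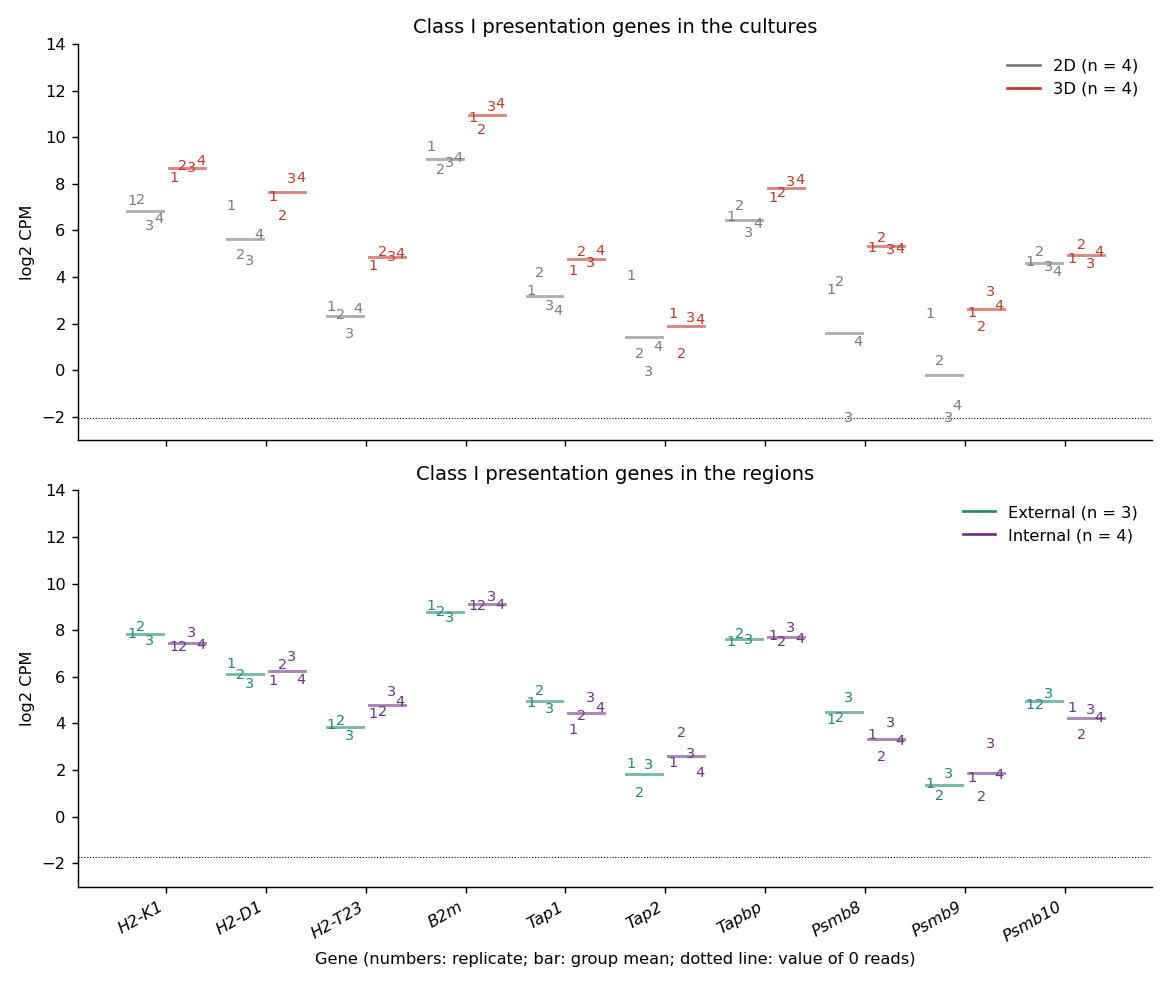
Level of each of the 10 class I presentation genes in log2 CPM (vertical axis), where each numeral is a sample and gives its replicate number, in 2D and 3D cultures and in internal and external regions. In the cultures *H2-K1*, *H2-T23*, *B2m*, *Tap1*, *Tapbp* and *Psmb8* have every 3D sample above every 2D sample, while *H2-D1*, *Tap2*, *Psmb9* and *Psmb10* overlap.

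Does the expression of this pathway differ between 3D and 2D cultures? In 3D against 2D, 4 of the 10 genes were called higher, *H2-K1*, *H2-T23*, *B2m* and *Tapbp*, and none was called lower. A call required a limma adjusted p under 0.01 and a log2 fold change beyond 1, and 2.92% of all genes were called higher and 1.51% lower. In 6 of the 10 genes every 3D sample lay above every 2D sample, compared with 12.0% of all genes. All 10 fold changes were positive, with a median log2 fold change of 1.88 against -0.03 over all genes. The summed level of the 10 genes was 2176 to 3995 CPM in 3D and 668 to 1225 CPM in 2D. In bulk RNA, more cells that express a gene cannot be told apart from more RNA per cell. The 2D dishes were collected short of confluence, and the spheroids after a longer time in culture. The study also found several cell cycle genes to be lower in spheroids. Time in culture, cell density and proliferation were therefore not separated from 3D growth, and their part in the result was not tested.

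The heavy chains come first in the order of the pathway's display at the surface. *H2-K1*, a classical class I heavy chain, had 152, 159, 73.3 and 89.4 CPM in the 4 samples of 2D and 302, 429.9, 410.4 and 503 CPM in those of 3D. The lowest 3D sample lay above the highest 2D sample. The log2 level was 8.66 ± 0.31 (SD, n = 4) in 3D and 6.81 ± 0.55 (SD, n = 4) in 2D, which gave a 3.602-fold higher level, with a log2 fold change of 1.85 ± 0.26 (SE, limma adjusted p = 0.00172). *H2-D1*, the other classical heavy chain, had 133, 30.3, 25.6 and 54.8 CPM in 2D and 173, 98.9, 294 and 302 CPM in 3D. Here the groups overlapped, because 2D replicate 1 exceeded 3D replicate 2. The log2 fold change of *H2-D1* was 2.01 ± 0.50 (SE, limma adjusted p = 0.0205), which did not pass the threshold. It did so without 2D replicate 1 (2.49, adjusted p = 0.00405), and in the other 7 fits that left out 1 sample it did not, with adjusted p from 0.0163 to 0.0678. *H2-T23* encodes Qa-1, a non-classical class I molecule recognized by the CD94/NKG2A receptor of natural killer cells. It had 6.28, 4.91, 2.69 and 5.93 CPM in 2D and 22.2, 33.5, 28.7 and 31.1 CPM in 3D. The groups did not overlap, and the level was 5.79-fold higher in 3D, with a log2 fold change of 2.53 ± 0.28 (SE, limma adjusted p = 0.000705).

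*B2m*, the light chain that pairs with class I heavy chains and that most of them need to reach the surface, had 770.5, 381, 479 and 558 CPM in 2D and 1808, 1287, 2499 and 2755 CPM in 3D. Each 3D sample lay above each 2D sample. The level was 3.78-fold higher in 3D, with a log2 fold change of 1.92 ± 0.27 (SE, limma adjusted p = 0.00172). For each read of *H2-K1* and *H2-D1* together there were 2.71, 2.01, 4.84 and 3.87 reads of *B2m* in 2D and 3.81, 2.44, 3.55 and 3.42 in 3D. These ratios overlapped between the groups, and their difference was not tested. *H2-K1* made up 53.3, 84.0, 74.1 and 62.0% of the reads of both classical heavy chains in 2D and 63.6, 81.3, 58.3 and 62.5% in 3D, again with overlap.

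The genes for peptide transport and loading followed, and only 1 of the 3 was called. *Tapbp* encodes tapasin, which holds the heavy chain at the TAP transporter until a peptide is bound. It had 96.0, 133, 58.4 and 77.1 CPM in 2D and 167, 196, 273 and 289 CPM in 3D, without overlap, and its level was 2.58-fold higher in 3D (log2 fold change 1.37 ± 0.26 SE, limma adjusted p = 0.0063). This call was the least firm of the 4: it was lost in 6 of the 8 fits that left out 1 sample, with adjusted p between 0.0103 and 0.0275, namely those without 2D replicates 1, 3 or 4 or without 3D replicates 2, 3 or 4. *Tap1*, a subunit of the transporter, had 10.2, 17.9, 6.44 and 5.52 CPM in 2D and 19.0, 33.7, 24.02 and 34.6 CPM in 3D. The groups did not overlap, although 3D replicate 1 and 2D replicate 2 lay close, and the log2 fold change of 1.56 ± 0.36 (SE, limma adjusted p = 0.0142) missed the threshold. Without 2D replicate 2, *Tap1* passed it, with a log2 fold change of 1.89 and an adjusted p of 0.00171. In the other 7 such fits it was not called, with adjusted p from 0.0215 to 0.05002 and log2 fold changes from 1.34 to 1.73.

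*Tap2* encodes the partner of TAP1 in the transporter. Its reads were few, with 156, 10, 6 and 17 reads in 2D and 40, 11, 35 and 34 reads in 3D. These correspond to 16.3, 1.36, 0.703 and 1.77 CPM in 2D and 5.10, 1.36, 4.54 and 4.21 CPM in 3D. The highest value of all came from 2D replicate 1, and the lowest 3D sample fell among the other 2D samples. The log2 fold change was 0.46 with a 95% interval from -1.29 to 2.22 (limma adjusted p = 0.719), an interval that spans both directions.

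The immunoproteasome subunits replace the catalytic subunits of the standard proteasome and favour peptides that fit class I molecules. *Psmb8* (LMP7) had 10.6, 13.5, 0 and 2.08 CPM in 2D and 38.0, 50.2, 35.5 and 36.3 CPM in 3D. The 3D samples lay close together and above all 2D samples, and the 2D samples ranged from 0 to 101 reads. The log2 fold change of *Psmb8* was 3.72 ± 1.03 (SE, limma adjusted p = 0.0301), which did not pass the threshold. In 2D replicate 3 the count of 0 allows up to 3 reads, and without that sample the log2 fold change fell to 2.51 (limma adjusted p = 0.0133). Without 2D replicate 2 the adjusted p was 0.00897, and over all fits that left out 1 sample it lay between 0.00897 and 0.0751.

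*Psmb9* (LMP2) had 49, 8, 0 and 1 reads in 2D and 41, 27, 78 and 53 reads in 3D. That is 5.13, 1.09, 0 and 0.104 CPM in 2D and 5.23, 3.33, 10.1 and 6.57 CPM in 3D. The groups overlapped through 2D replicate 1 alone. The log2 fold change was 2.80 ± 0.86 (SE, limma adjusted p = 0.0444) and without 2D replicate 1 it was 3.67 with an adjusted p of 0.00561. In the other 7 fits that left out 1 sample *Psmb9* was not called, with adjusted p from 0.0396 to 0.124 and a log2 fold change down to 2.17 without 2D replicate 3, and with log2(CPM + 1) the log2 fold change was 1.81. *Psmb10* (MECL-1) had 24.9, 33.0, 21.4 and 18.2 CPM in 2D and 27.2, 41.7, 23.4 and 33.6 CPM in 3D. Its groups overlapped, with a log2 fold change of 0.36 and a 95% interval from -0.15 to 0.88 (limma adjusted p = 0.302).

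**Figure D2:**
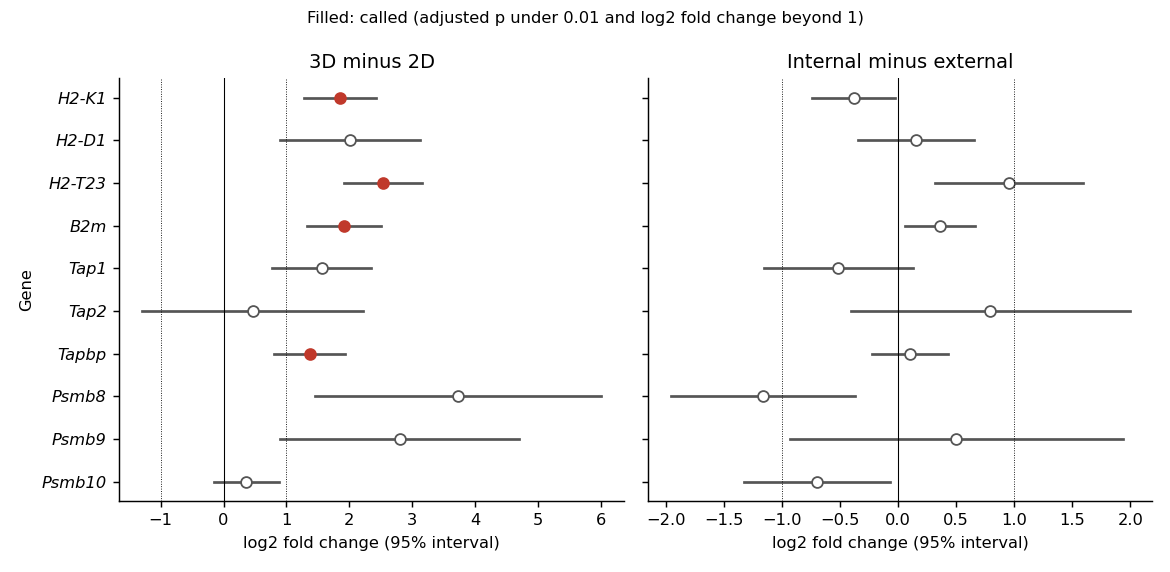
Log2 fold change of each of the 10 genes (horizontal axis) with its 95% interval from limma, for 3D against 2D and for internal against external. Filled points mark called genes, and these are *H2-K1*, *H2-T23*, *B2m* and *Tapbp* in 3D against 2D and none in internal against external.

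A comparison within each library does not depend on how the libraries were scaled, so each inducible subunit was set against the standard subunit it replaces. *Psmb8* replaces *Psmb5*, *Psmb9* replaces *Psmb6* and *Psmb10* replaces *Psmb7*. The standard subunits themselves had log2 fold changes of -0.06 (*Psmb5*), -0.04 (*Psmb6*) and -0.37 (*Psmb7*), with limma adjusted p of 0.8286, 0.888 and 0.680. *Psmb8* made up 9.404, 12.8, 0 and 1.66% of the reads of its pair in 2D and 27.1, 33.8, 31.9 and 25.3% in 3D. The mean share was 29.5 ± 3.96% (SD, n = 4) in 3D and 5.95 ± 6.11% (SD, n = 4) in 2D. The groups did not overlap, and the log2 ratio was 3.78 higher in 3D (exact two-sided permutation test, p = 0.0286, the smallest that 4 against 4 samples can give), but with Benjamini-Hochberg adjustment over the 6 ratio tests p was 0.171. Without 2D replicate 3, the sample with 0 reads of *Psmb8*, the log2 ratio was 2.65 higher in 3D.

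*Psmb9* made up 1.88, 0.323, 0 and 0.0413% of its pair in 2D and 2.17, 1.11, 4.04 and 2.36% in 3D, so that it remained a small part of the reads in both. The log2 ratio was 2.83 higher in 3D (exact two-sided permutation test, p = 0.0571, adjusted p = 0.171). *Psmb10* made up 9.02, 49.5, 13.4 and 9.50% in 2D and 19.2, 48.8, 16.1 and 21.7% in 3D. The replicate 2 samples of both cultures stood apart here, with 247 and 354 reads of *Psmb7* where the other samples had at least 894. The log2 ratio of *Psmb10* to *Psmb7* differed by 0.73 (exact two-sided permutation test, p = 0.457, adjusted p = 0.549). This difference was 0.22 without 3D replicate 2 and 0.40 or 0.42 without 2D replicates 1 or 4, and it was 1.49 without 2D replicate 2.

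**Figure D3:**
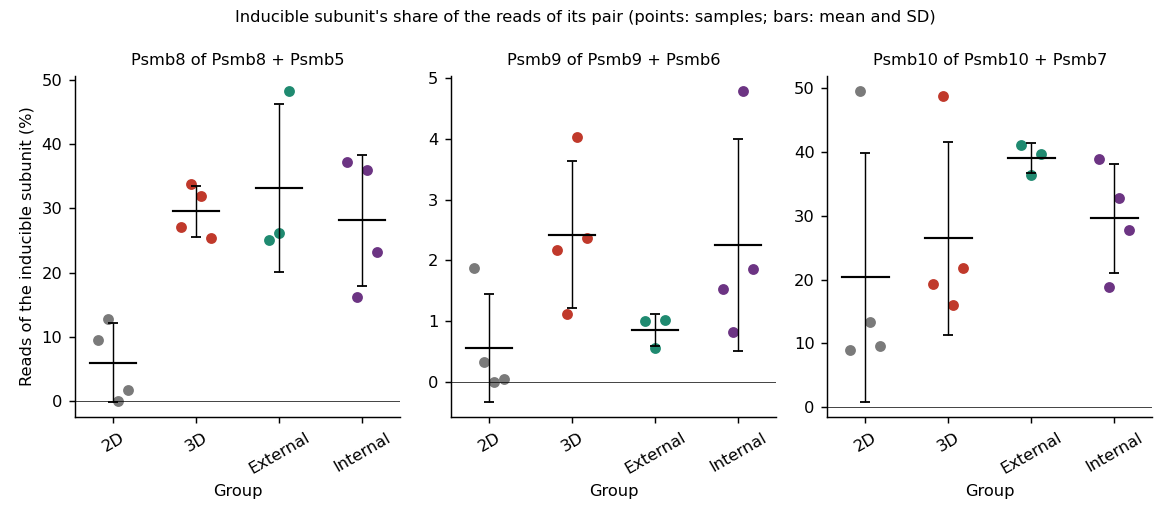
Share of the reads of each pair (vertical axis, in percent) that came from the inducible subunit, with points for samples and bars for the mean and SD, in 2D, 3D, external and internal samples. *Psmb8* lies between 25.3 and 33.8% in 3D and between 0 and 12.8% in 2D.

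The rest of the pathway was described with lists of genes grouped by role. Of 21 other class I heavy chain genes, 7 were measured in the cultures, and 2 were called higher in 3D. *H2-Q7*, a non-classical gene of the Qa-2 family, had 2 to 29 reads in 2D and 75 to 155 in 3D (log2 fold change 3.28 ± 0.62 SE, limma adjusted p = 0.00675). *Fcgrt*, the heavy chain of the neonatal Fc receptor, which also pairs with β2-microglobulin but presents no peptide, had 77 to 239 reads in 2D and 673 to 842 in 3D (log2 fold change 2.29 ± 0.34 SE, limma adjusted p = 0.00237). None of the other 5 passed the threshold, but all 7 fold changes were positive, with a median of 1.63.

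The list of peptide loading and trimming genes outside the members held no call. All 11 were measured, among them *Calr*, *Canx*, *Pdia3* and *Erap1*, and none was called by limma, with 1 of them (*Lap3*) at an adjusted p of 0.0334 and a log2 fold change of -0.43. Their median log2 fold change was 0.01, close to that of all genes. The 3 standard catalytic subunits had a median of -0.06, the 11 other core subunits of the proteasome a median of -0.28 and the 9 measured of 10 activator and assembly genes a median of -0.14, and no gene of these lists was called. *Psme1*, a subunit of the interferon-inducible proteasome activator PA28, had 601 to 1048 reads in 2D and 1322 to 1447 in 3D, without overlap (log2 fold change 0.97 ± 0.23 SE, limma adjusted p = 0.016). Of the 11 other core subunits 10 had negative fold changes, and *Psma1* (-0.42, adjusted p = 0.0384) and *Psma7* (-0.34, adjusted p = 0.071) were lower in every 3D sample than in any 2D sample.

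Among the 27 regulators of the pathway listed, 26 were measured and 3 were called higher in 3D. These were *Irf7* (log2 fold change 3.63 ± 0.53 SE, limma adjusted p = 0.00198), *Irf9* (1.95 ± 0.38 SE, adjusted p = 0.00718) and *Stat3* (1.30 ± 0.17 SE, adjusted p = 0.00142). IRF7 and IRF9 are transcription factors of the interferon response. *Irf7* had 11 to 65 reads in 2D and 206 to 490 in 3D. *Irf1*, an activator of class I genes, had a log2 fold change of 1.32 ± 0.31 (SE, limma adjusted p = 0.0153) and *Nlrc5*, the class I transactivator, 1.53 ± 0.59 (SE, limma adjusted p = 0.0969), and neither passed the threshold. *Ezh2*, which silences class I genes in some tumours, had an adjusted p of 0.00296 with a log2 fold change of -0.94, short of the fold threshold. The median over the regulators was 0.31. Of 10 class II genes only *H2-DMa* and *H2-DMb1* were measured, and neither was called.

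**Figure D4:**
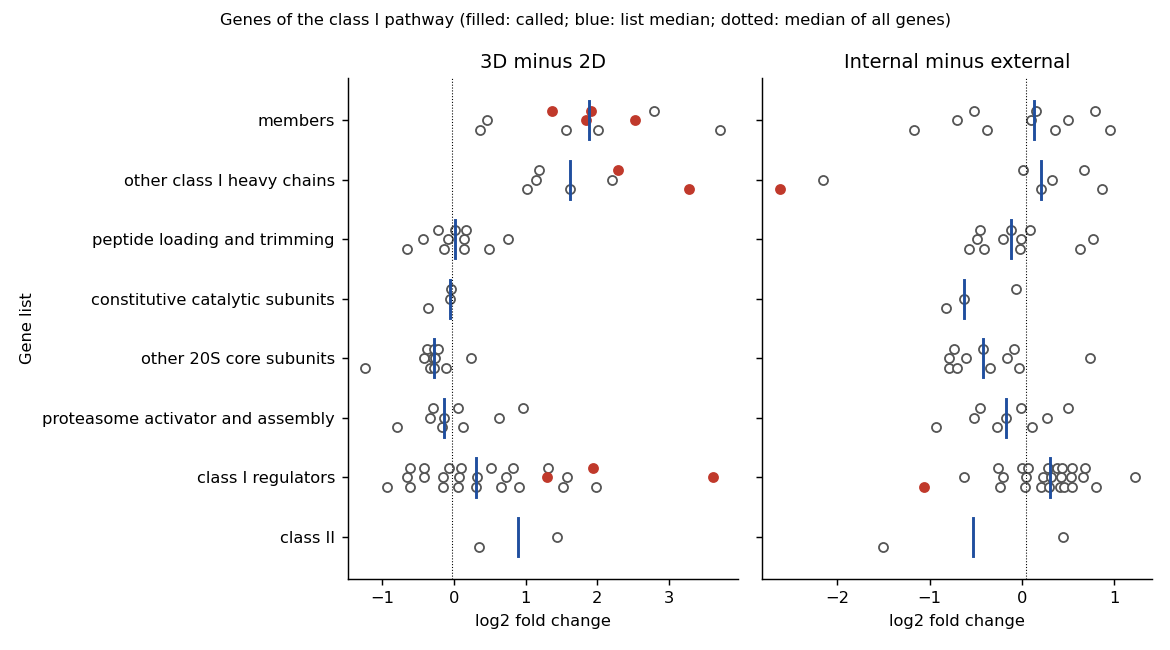
Log2 fold change (horizontal axis) of every measured gene of the class I pathway by list, for 3D against 2D and for internal against external. Filled points are called genes, blue marks are the list medians and the dotted line is the median of all genes. In 3D against 2D the members have a median of 1.88 and the other heavy chains 1.63. The loading list has a median of 0.01, and the proteasome lists have medians from -0.28 to -0.06.

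Counts over these lists moved when single libraries were left out, as did those over all genes. Of the 69 measured pathway genes outside the members, 5 were called in 3D against 2D, but 1 without 3D replicate 3 or without 3D replicate 4, 3 without 2D replicate 4 or without 3D replicate 1, and 9 without 2D replicate 2. Over all genes there were 341 higher and 176 lower calls, 112 and 49 without 3D replicate 3, 115 and 62 without 3D replicate 4, 217 and 79 without 2D replicate 4, 191 and 80 without 3D replicate 1, and 483 and 287 without 2D replicate 2.

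Markers of other cell types were examined beside these results. Of 10 leukocyte markers, only *Cd68* was measured in the cultures, at 0.383 to 1.17 CPM in 3D and 0.624 to 1.64 CPM in 2D. *Ptprc*, *Csf1r*, *Cd3e* and *Cd79a* were not among the genes left after the filter for low CPM, nor was any of 4 endothelial markers. All 6 fibroblast markers were measured, and 3 were called higher in 3D, namely *Col3a1*, *Dcn* and *Thy1*. *Col1a2* went the other way, with 2 to 6 reads in 3D and 7 to 26 in 2D, without overlap (log2 fold change -1.47, limma adjusted p = 0.0574), and *Col1a1* (0.27, adjusted p = 0.671) and *Pdgfra* (0.81, adjusted p = 0.219) overlapped. Their summed level was 451 to 702 CPM in 3D and 70.1 to 227 CPM in 2D, and its part in the class I result was not tested.

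Does the expression of the pathway differ between the inside and the outside of the spheroids? In the internal against the external region, none of the 10 genes was called by limma, which called 3.27% of all genes higher and 4.35% lower. The fit with voom weights also called none of the 10. At an unadjusted p under 0.05 there were 5, with *H2-T23* and *B2m* higher and *H2-K1*, *Psmb8* and *Psmb10* lower in the internal region, against 16.1% and 17.5% of all genes. The groups did not overlap in *H2-T23*, higher inside, and in *Psmb8* and *Psmb10*, higher outside, and 13.5% and 15.4% of all genes were apart in these directions. The median log2 fold change of the 10 genes was 0.13, and that of all genes 0.04. The summed level was 1016 to 1437 CPM in the internal and 903 to 1129 CPM in the external region.

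*H2-T23* had 20.8, 22.3, 40.5 and 29.8 CPM in the internal samples and 15.2, 16.8 and 10.7 CPM in the external samples. The internal samples were all above the external ones, and the level was 1.94-fold higher inside (log2 fold change 0.96 ± 0.31 SE, limma adjusted p = 0.028). *H2-K1* had 156, 154, 237 and 165 CPM in the internal and 225, 284 and 186 CPM in the external samples, so that 3 of the 4 internal samples were below every external one. The log2 fold change of *H2-K1* was -0.38 ± 0.17 (SE, limma adjusted p = 0.123). *H2-D1* had 55.9, 91.6, 117 and 58.4 CPM in the internal and 93.9, 67.9 and 51.6 CPM in the external samples. Its groups overlapped, with a log2 fold change of 0.15 and a 95% interval from -0.35 to 0.66 (limma adjusted p = 0.698).

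*B2m* had 529, 519.6, 684 and 544 CPM in the internal samples and 533, 443 and 363 CPM in the external samples, which overlapped through external replicate 1 (log2 fold change 0.36 ± 0.15 SE, limma adjusted p = 0.0854). There were 2.502, 2.12, 1.94 and 2.44 reads of *B2m* per read of the classical heavy chains inside and 1.67, 1.26 and 1.53 outside. These ratios did not overlap, a difference that was not tested.

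*Tap1* had 13.0, 19.4, 33.7 and 25.4 CPM in the internal and 29.1, 41.8 and 24.3 CPM in the external samples (log2 fold change -0.51 ± 0.31 SE, limma adjusted p = 0.257). *Tap2* had 31, 103, 27 and 40 reads in the internal and 27, 8 and 16 reads in the external samples (log2 fold change 0.79 ± 0.58 SE, limma adjusted p = 0.365). Its fold change lay between 0.39 and 1.05 when 1 sample was left out. *Tapbp* was between 179 and 271 CPM inside and between 181 and 227 CPM outside, with a log2 fold change of 0.10 and a 95% interval from -0.23 to 0.43 (limma adjusted p = 0.701). None of these transport and loading genes had groups apart.

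*Psmb8* had 10.9, 5.54, 15.8 and 9.09 CPM in the internal samples and 17.5, 18.5 and 33.4 CPM in the external samples. All external samples were above all internal ones, and the level was 2.24-fold lower inside (log2 fold change -1.17 ± 0.38 SE, limma adjusted p = 0.0313). *Psmb10* also had every internal sample below every external one, with 25.3, 11.1, 23.6 and 18.4 CPM in the internal and 27.5, 27.4 and 37.7 CPM in the external samples (log2 fold change -0.70 ± 0.30 SE, limma adjusted p = 0.108). *Psmb9* had 19, 13, 37 and 38 reads inside and 14, 7 and 12 reads outside, and its log2 fold change was 0.50 ± 0.69 (SE, limma adjusted p = 0.655). Leaving out 1 sample moved this fold change between 0.08 and 0.84. Of the inducible subunits, *Psmb9* alone had overlapping groups.

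Of the standard subunits, none was called. *Psmb5* had a log2 fold change of -0.83 ± 0.25 (SE, limma adjusted p = 0.0206), *Psmb6* of -0.62 ± 0.15 (SE, adjusted p = 0.00312) and *Psmb7* of -0.06 ± 0.21 (SE, adjusted p = 0.876). Set against its standard partner, *Psmb8* took 37.2, 16.2, 35.9 and 23.2% of the reads inside and 25.0, 26.2 and 48.3% outside, with overlap. The log2 ratio of *Psmb8* to *Psmb5* was 0.34 lower inside on average (exact two-sided permutation test, p = 0.629, adjusted p = 0.629). The *Psmb9* to *Psmb6* ratio was 1.12 higher (exact two-sided permutation test, p = 0.171, adjusted p = 0.257) and the *Psmb10* to *Psmb7* ratio 0.64 lower (exact two-sided permutation test, p = 0.114, adjusted p = 0.229). When 1 sample was left out, these differences lay between 0.68 and 1.48 and between -0.85 and -0.37. With 4 against 3 samples this test cannot go below 0.0571.

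Across the wider pathway, 2 of the 69 measured genes outside the members were called in the regions, both lower inside, where 4.35% of all genes were called lower. *H2-Q7* had 4 to 55 reads inside and 81 to 105 outside (log2 fold change -2.62 ± 0.64 SE, limma adjusted p = 0.00431), and was apart in the direction opposite to that of *H2-T23*. Of the 7 measured heavy chains outside the members, 5 had positive and 2 negative fold changes, with a median of 0.21. *H2-Q6* was also lower inside (-2.15, limma adjusted p = 0.0986) and *Mr1* higher (0.67, adjusted p = 0.0584), both without overlap. *Ezh2* had a log2 fold change of -1.06 ± 0.28 (SE, limma adjusted p = 0.0082), although its groups overlapped. The count of 2 fell to 0 without a variance trend, without internal replicate 1 or without external replicate 3, and to 1 without internal replicates 2 or 4 or without external replicate 1. Without the fold threshold, which 7.88% of all genes passed downwards and 5.20% upwards, 6 proteasome genes passed the adjusted p of 0.01, all lower inside: *Psmb6*, *Psma6*, *Psma7*, *Psmb3*, *Psmb4* and the assembly factor *Pomp*, with log2 fold changes from -0.93 to -0.62. *Fcgrt* passed it in the other direction (log2 fold change 0.86 ± 0.17 SE, limma adjusted p = 0.000628). Medians stood at -0.42 for the 11 other core subunits and -0.12 for the 11 loading and trimming genes.

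Of the regulators in the regions, only *Ezh2* was called. *Irf1* (log2 fold change 0.46 ± 0.32 SE, limma adjusted p = 0.345), *Irf7* (0.54 ± 0.27 SE, adjusted p = 0.159) and *Nlrc5* (0.32 ± 0.30 SE, adjusted p = 0.482) did not pass the threshold. Of the 10 leukocyte markers, 2 were measured in the regions, *Cd68* with 1 to 32 reads and *Csf1r* with 0 to 45 reads, and their summed level was 2.06 to 8.20 CPM inside and 0.165 to 10.01 CPM outside, with overlap. Their part in the region results was not tested. Of 5 fibroblast markers measured in the regions, *Col3a1* was called higher inside (log2 fold change 1.59, limma adjusted p = 3.7e-05) and *Col1a1* lower (-1.56, adjusted p = 0.000206). The fibroblast markers summed to 402 to 494 CPM inside and 221 to 589 CPM outside.

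The genes whose level followed that of the 10 members most closely were sought among 9456 genes, those whose average log2 CPM reached 2 in both tables. The mean of the members, each scaled over the samples of a table, was correlated with every gene, and the lower of the values from the 8 culture samples and the 7 region samples ranked the genes. The leading 5 were *Kyat1* (Pearson r = 0.93 and 0.91), *Mapk7* (0.96 and 0.88), *Isg15* (0.84 and 0.95), *Zfp688* (0.90 and 0.83) and *Cdc42ep4* (0.85 and 0.82), with the cultures given first. *Isg15* is an interferon-stimulated gene that encodes a ubiquitin-like protein. In the regions the members themselves followed their mean less closely, with r from -0.04 (*Tap2*), 0.24 (*Psmb10*) and 0.31 (*Psmb8*) up to 0.81 (*Tapbp*), so the mean does not stand for all 10 genes there. These correlations are descriptions over samples that share their groups.

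Reads from the 3′ ends of class I genes cannot always be placed on 1 gene, and the authors kept reads with a unique position. Of the stretches of 50 bases in the last 300 bases of the annotated transcripts, 50.6% of *H2-T23*, 13.6% of *H2-D1*, 9.54% of *H2-K1*, 5.07% of *Tapbp* and 4.92% of *Tap1* also occur in other transcripts, and for *B2m*, *Tap2* and the 3 immunoproteasome subunits none do. For *Psmb5*, the partner of *Psmb8* in the ratio, the share was 51.4%. Reads of these 6 genes may be split with or lost to other transcripts that hold the same stretches, so their levels relative to other genes, and the *Psmb8* to *Psmb5* share, are uncertain.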

How the data were processed

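RNA of 15 samples was sequenced from 3′ ends with QuantSeq. After trimming, the authors retained sense reads, placed them with STAR 2.7.8a to GRCm38.p6 and counted unique reads with featureCounts 1.6.0 (versions from the submitters' processing notes). The values the authors deposited are log2 CPM with a prior count, scaled within each table and filtered for low CPM. The deposited fold changes and p-values were not used. Whole reads were recovered from the spacing of the log2 values (100.0% of values whole within 0.02), and CPM and shares come from them. The floor of 3 reads covers counting error only, and the 95% intervals are limma's, from the spread between samples.

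Genes were tested with limma 3.58.1 in R 4.3.3, using a variance trend and two-sided tests. The Benjamini-Hochberg method was applied across each whole table, and genes were called at adjusted p under 0.01 and absolute log2 fold change over 1. The fit was run on simulated data, in which 99% of 200 changed genes were called for each table. The simulation gave all genes the same dispersion, so it does not cover the more variable members. Ratios were tested with exact permutation tests in scipy 1.17.1. The p-values measure the spread between these samples, which may be technical. The members and gene lists were chosen with earlier results of these data known, and 1 regulator is not reported here and was left out of the lists. Named genes are the members, called genes of the lists, *Psmb5*, *Psmb6*, *Psmb7*, *Nlrc5*, *Irf1* and the 5 most alike. A few others (such as *Psme1*, *Psma1*, *Lap3* and *Pomp*) were named after their values were seen. Positions are from GENCODE vM21. Alternatives were another variance prior, threshold, filter, scaling, voom weights, the replicate block, and leaving out each sample.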

Additional observations from a re-analysis of the deposited data

Results flagged for a closer look

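Among the 10 genes in the 3 groups of 4 samples and the subunit ratios, 39 sets of 4 samples were examined for a sample far from the others, and 3 had one, where chance gives about 1 in 20. *Tap2* had a log2 CPM of 0.68 in 3D replicate 2, and the other 3D samples lay between 2.16 and 2.42. *H2-K1* had a log2 CPM of 7.89 in internal replicate 3, and the other internal samples lay between 7.27 and 7.37. *B2m* had a log2 CPM of 9.42 in the same internal sample, and the others lay between 9.02 and 9.09.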

How the results depend on the processing

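The calls of *H2-K1*, *H2-T23* and *B2m* in 3D against 2D held in all 18 alternatives, with log2 fold changes from 1.65 to 2.02, from 2.28 to 2.67 and from 1.76 to 2.13 when 1 sample was left out. *Tapbp* was not called without a variance trend (adjusted p = 0.0187). At an adjusted p under 0.05, 8 of the 10 genes were called in the cultures and 1 (*Psmb8*, lower inside) in the regions, where 644 of all 11677 genes were higher and 334 lower in the cultures, and 539 of all 11299 genes higher and 638 lower in the regions. When 1 sample was left out, 3 to 6 genes were called in the cultures and 0 in the regions. Without both samples numbered 2, an alternative chosen after seeing the data, 5 were called in the cultures, where 397 of all genes were higher and 276 lower. Of the other pathway genes in the cultures, 3 were called without a variance trend, 9 at an adjusted p under 0.05, 8 with the replicate block, 11 without both samples numbered 2, and 1 to 9 when 1 sample was left out. In the regions these counts were 0 without a variance trend, 9 with no fold threshold, 1 with unscaled log2(CPM + 1), 1 with voom weights, 1 with the replicate block, 1 without both samples numbered 2 (higher inside) and 0 to 2 when 1 sample was left out (without external replicate 2, 1 higher and 1 lower). The direction changed in *Tap2* in the cultures without 2D replicate 3 (-0.0365, with a leave-one-out range up to 1.34), in *H2-D1* in the regions without internal replicate 3 (-0.0457) or external replicate 3 (-0.0542, with a range up to 0.376), in *Tapbp* in the regions without internal replicate 3 (-0.0183, with a range up to 0.199), and in the *Psmb8* to *Psmb5* ratio in the regions without external replicate 3 (0.13, with a range from -0.60 to 0.13). The causes were not tested.

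The labels do not say whether replicate numbers pair the samples, and the main fit treated them as unpaired. Deviations of samples with the same number correlated at 0.23, 0.50, 0.07 and 0.01 across genes in the cultures. Culture samples with different numbers ranged from -0.33 to 0.19. In the regions the values for the same number were -0.04, -0.07 and -0.06. With the replicate block, under which 389 of all genes were called higher and 213 lower in the cultures, 6 of the 10 genes were called in the cultures, among them *H2-D1* (adjusted p = 0.00877) and *Tap1* (adjusted p = 0.00797), and 0 in the regions. Over all genes, the fit without a variance trend called 239 higher and 123 lower in the cultures, against 341 and 176, and 117 and 207 in the regions, against 370 and 491. With 3D replicate 3 left out, 112 and 49 were called. With unscaled log2(CPM + 1), 53.8% of calls in the regions were higher inside, against 43.0%, and the median of all genes was 0.14 against 0.04. Depth limits *Tap2* and *Psmb9*, with fewer than 20 reads in several samples.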

Other observations

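Single samples held the extremes of their group for many of the members. Internal replicate 3 had the highest level of its group in 8 of the 10 genes and the lowest in 0, and *Tap2* and *Psmb10* were the exceptions. In 2D, replicate 3 had the lowest level in 7 of the 10 genes, with *B2m*, *Tap1* and *Psmb10* as the exceptions, and it is the library with 0 reads of *Psmb8* and *Psmb9* and 1 read of *Prox1*. In 2D, replicates 1 and 2 shared the highest levels, with 5 genes each: *H2-D1*, *H2-T23*, *B2m*, *Tap2* and *Psmb9* were highest in replicate 1, and *H2-K1*, *Tap1*, *Tapbp*, *Psmb8* and *Psmb10* in replicate 2. What sets these libraries apart was not tested.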
